A study of Mus musculus with 8 samples.

Results

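Immediate early genes are transcribed within minutes of a stimulus, without new protein synthesis, mostly through MAP kinases that activate factors already bound to their promoters. Many encode transcription factors: Fos and Jun family proteins pair through leucine zippers to form AP-1, Atf3 pairs with Jun proteins, and Egr1 is a zinc finger factor. Others limit the response, such as the MAP kinase phosphatase Dusp1. The set described here is 10 such genes, namely Fos, Fosb, Jun, Junb, Jund, Egr1, Ier2, Ier3, Atf3 and Dusp1. Its members were all probe sets whose annotation is 1 of these symbols alone, which gave 12 of the 45101 probe sets on the array, 2 each for Jun and Jund and 1 for every other gene. They were measured in mouse atrioventricular canal, the part of the embryonic heart where the cushions that become valves form.

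The 4 control pools were Gata4flox/flox, and the 4 mutant pools were Gata4flox/flox; T2Cre+, also called Gata4T2del, so floxed alleles were common to both groups. T2Cre is Cre driven by the promoter of Tie2, a gene active in endothelium, so that Gata4 is lost there and in mesenchyme that arises from it, while the muscle of the canal keeps the gene. All animals had mixed C57BL6/129 ancestry. Each pool held 10 dissected canals, and 50 ng of its RNA was amplified and put on 1 array. The age of the embryos is not given in the labels, and no label gives Cre to the controls, so Cre and loss of Gata4 cannot be told apart. The comparison asks which transcripts differ between canals with and without Gata4 in endothelial descendants. Since the tissue is whole canal, a lower or higher signal does not separate the number of cells of a type from the RNA in each. Nothing in the labels says that the pools came from separate litters, so p values measure the spread between these pools.

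Signals are linear probe set intensities from MAS5, Affymetrix's own summary method, and the number of arrays limits the precision. Levels for the comparison are log2(signal + 16) after quantile normalization, which gives every array the same distribution. A probe set is called above background on an array where its signal exceeds that of 90% of 27 bacterial control probe sets there. Controls 2 and 3 stood apart, with median background signals of 158 and 135 against 4.0 to 39.3 on the other 6 arrays, and they had the lowest weights in the fit, 0.302 and 0.350 against 0.867 to 2.80. The design text says that 2 noisy controls were dropped without naming them, and all 4 are kept here. Canal markers were present: of 6 genes of canal muscle 5 were tested, Bmp2, Tbx3 and Rspo3 were above background on all 8 arrays, and Tbx2 was on 2 control and 4 mutant arrays. All 10 cushion mesenchyme markers were above background on all 8 arrays.

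Of the 10 genes, Fos, Ier3 and Dusp1 had higher levels on every mutant array than on any control array, while the other 7 showed no such separation upward. None of the 10 tested member probe sets passed an adjusted p of 0.05 in limma, a linear model fitted to all 27022 tested probe sets, of which 0.0259% were called higher and 0.0185% lower. At an unadjusted p under 0.05, 3 members were higher (Fos, Ier3 and Dusp1) and 1 was lower (Jun), where 7.31% of all probe sets were higher and 5.33% lower. The groups did not overlap upward for the same 3 members and downward for Jun, beside 4.44% and 3.19% of all probe sets. The median change over the 10 tested member probe sets was -0.04 on the log2 scale, with 5 positive and 5 negative, against 0.03 over all probe sets, of which 53.8% were positive. The number of calls depended on the controls kept: without control 1, 5.24% of all probe sets passed as higher, and without control 4, 4.78%, against 0.329% without control 3 and 0.0037% without controls 2 and 3.

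The sequences before the annotated starts of the 3 genes with higher mutant values are shown because these promoters are where stimulus-dependent factors are known to act. They are the 250 bases upstream of the RefSeq start, 5′ to 3′ along the gene, from build GRCm38.p6. Fos lies at chr12:85473640-85473889 on the plus strand, Ier3 at chr17:35821463-35821712 on the plus strand, and Dusp1 at chr17:26508473-26508722 on the minus strand. Capitals mark matches to TGACG, the core of the cyclic AMP response element, to the full palindrome TGACGTCA, which contains TGACG on both strands, and to TATAAA.
Fos: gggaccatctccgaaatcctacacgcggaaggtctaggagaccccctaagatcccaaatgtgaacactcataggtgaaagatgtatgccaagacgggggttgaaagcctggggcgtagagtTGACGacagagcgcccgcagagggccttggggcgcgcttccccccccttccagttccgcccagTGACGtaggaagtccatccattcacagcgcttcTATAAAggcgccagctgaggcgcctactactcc
Ier3: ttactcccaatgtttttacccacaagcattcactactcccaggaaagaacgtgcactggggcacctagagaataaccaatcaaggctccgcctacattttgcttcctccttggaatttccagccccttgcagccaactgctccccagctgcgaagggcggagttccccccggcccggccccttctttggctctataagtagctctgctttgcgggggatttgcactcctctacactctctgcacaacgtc
Dusp1: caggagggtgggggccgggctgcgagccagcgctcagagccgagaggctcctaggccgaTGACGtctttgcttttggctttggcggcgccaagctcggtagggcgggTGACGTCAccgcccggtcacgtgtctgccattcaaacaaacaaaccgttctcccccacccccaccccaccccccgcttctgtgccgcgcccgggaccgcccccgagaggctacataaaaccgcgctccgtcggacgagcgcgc

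The Fos window holds TGACG starting 129 and 66 bases before the start and TATAAA starting 33 bases before it. Dusp1 holds TGACG 191 bases before its start and the full TGACGTCA 143 bases before it, and Ier3 holds none of the motifs searched. Windows were found for 8 of the 10 genes, all but Egr1 and Ier2. On either strand, TGACG was in 5 of these 8 (Fos, Fosb, Junb, Atf3 and Dusp1) and in 17.8% of 32851 RefSeq windows of this length. TGACGTCA was in 1 of 8 and in 1.55% of windows, and TATAAA in 1 of 8 and 12.4%. The AP-1 motif TGANTCA was in 0 of 8 and 6.75%, and the CArG box, which serum response factor binds, in 0 of 8 and 1.47%. The GATA motifs AGATAA or TGATAA were in 2 of 8 (Jun and Atf3) and 16.6%. These are matches of letters in a short window and show neither binding nor its absence. Bases further upstream were not searched, so 0 of 8 does not mean that these genes lack a CArG box or AP-1 motif. Egr1 and Ier2 were not searched at all.

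Fos encodes the AP-1 subunit that gives the family its name and is a standard readout of recent MAP kinase activity. Its deposited signals were 532, 779, 388 and 446 in controls 1 to 4 and 926, 839, 990 and 880 in mutants 1 to 4. All 4 mutant values lay above the highest control, and the mutants were tightly grouped while the controls spread, with control 3 lowest. The normalized log2 level was 8.88 ± 0.65 in controls and 9.87 ± 0.04 in mutants (SD, n = 4 each). The fitted log2 change was 0.89 (SE 0.19), a 1.85-fold difference with a 95% interval of 1.40 to 2.44, and limma's adjusted p was 0.116. Fos was above background on all 8 arrays and ranked 49 of 27022 by p. Without controls 2 and 3 the change was 0.91 (adjusted p = 0.205). It passed without control 1 (1.24, adjusted p = 0.0188), without control 3 (0.76, adjusted p = 0.0355), without control 4 (1.06, adjusted p = 0.0310) and on the authors' scaling (0.82, adjusted p = 0.0432).

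Ier3, also known as IEX-1, is a small stress-inducible protein that affects cell survival and ERK signalling. Its signals were 690, 739, 590 and 602 in controls 1 to 4 and 961, 973, 1060 and 1141 in mutants 1 to 4. The groups were fully separate, with the lowest mutant above the highest control. The log2 level was 9.28 ± 0.24 in controls and 10.03 ± 0.09 in mutants (SD, n = 4 each). The fitted change was 0.68 (SE 0.15), 1.6-fold with a 95% interval of 1.28 to 1.99, and limma's adjusted p was 0.141. Without controls 2 and 3 it was 0.71 on the log2 scale (adjusted p = 0.379), and it passed without control 1 (0.89, adjusted p = 0.0200) and without control 4 (0.79, adjusted p = 0.0306).

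Dusp1 dephosphorylates and so inactivates MAP kinases, and its own transcription is a feedback of the same pathway. Its signals were 5279, 2963, 2806 and 5381 in controls 1 to 4 and 8043, 6856, 6538 and 6611 in mutants 1 to 4. The mutants again lay above all controls, but the controls fell into a low pair, arrays 2 and 3 with raised background, and a higher pair. The log2 level was 12.03 ± 0.35 in controls and 12.68 ± 0.16 in mutants (SD, n = 4 each), and the mutant spread came from mutant 1. The fitted change was 0.46 (SE 0.11), 1.38-fold with a 95% interval of 1.17 to 1.63, and limma's adjusted p was 0.195. Without controls 2 and 3 it was 0.32 (adjusted p = 0.574). It passed without control 1 (0.82, adjusted p = 0.0154) and without control 4 (0.78, adjusted p = 0.0175).

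The direction of these 3 genes did not depend on the scaling tried. With each array centred on its own median in place of quantile normalization, the probe sets tested had a median change of 1.13. Fos, Ier3 and Dusp1 lay 1.11, 1.02 and 1.41 above it. Jund, Jun and Egr1, also bright, lay 0.59, 0.42 and 0.29 above it. The dimmer Junb, Ier2 and Atf3 were at -0.58, -0.75 and -0.43 from it. The side of the median on which members lay thus went with brightness, so these margins are not separate support for a direction. On the authors' scaling, Fos, Ier3 and Dusp1 lay 0.92, 0.77 and 0.66 above the median change of -0.10. The 3 prime to 5 prime log2 ratios, a measure of RNA quality, leaned opposite ways for the 2 control transcripts and overlapped between groups. That of Actb was 1.14 to 1.40 in controls and 1.31 to 1.51 in mutants, and that of Gapdh was 0.36 to 0.48 in controls and 0.31 to 0.42 in mutants. With the mean ratio of Actb and Gapdh as a covariate, the changes were 0.70 for Fos (adjusted p = 0.356), 0.61 for Ier3 (adjusted p = 0.335) and 0.28 for Dusp1 (adjusted p = 0.387). The part of RNA quality in the 3 values was not tested further.

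**Figure D1:**
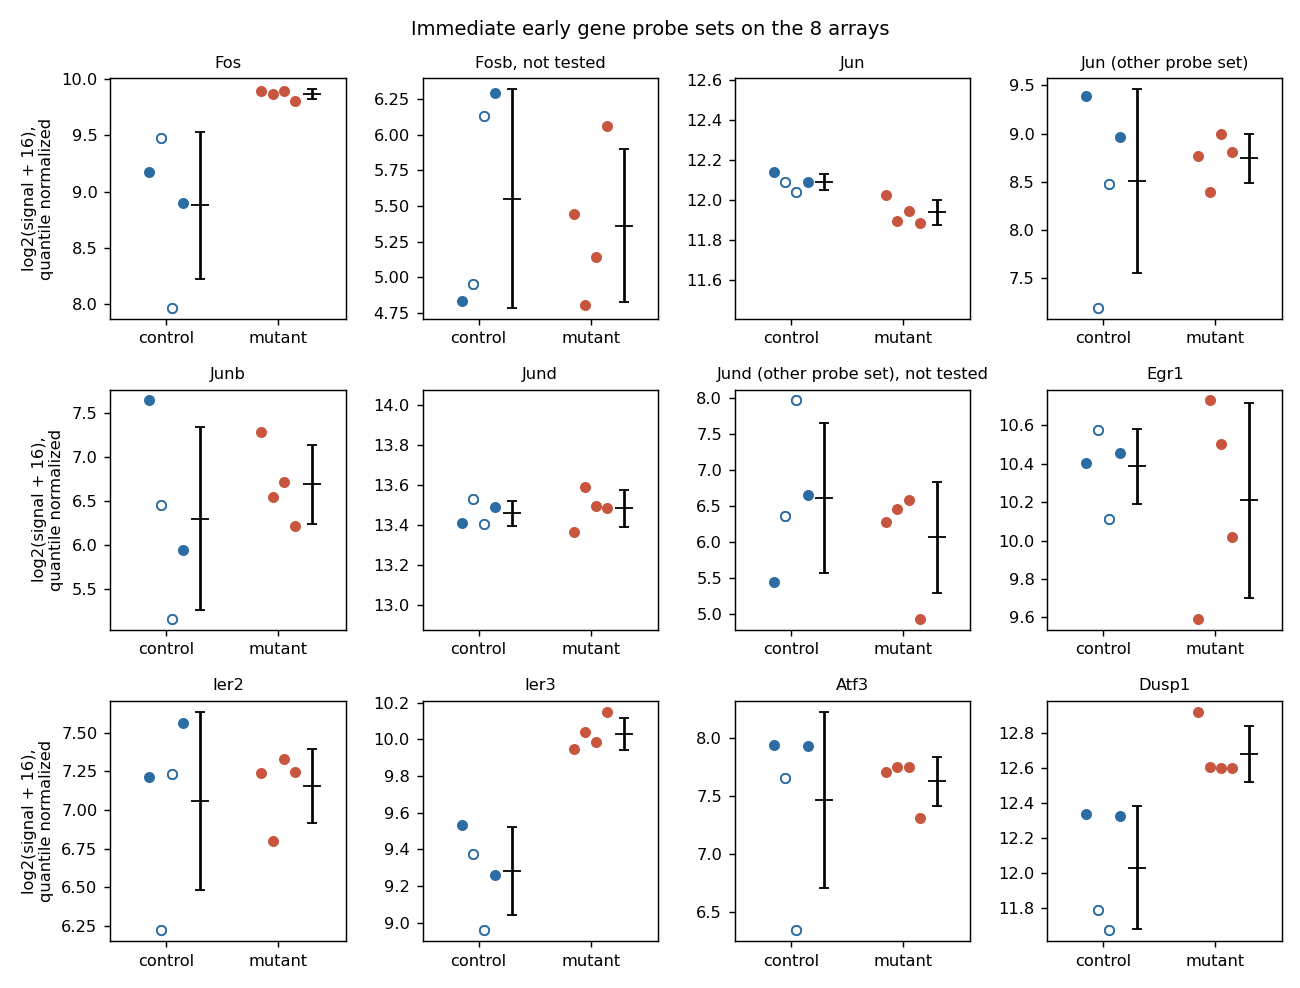
Normalized log2(signal + 16) of the 12 member probe sets on the 4 control (blue) and 4 mutant (red) arrays, with the mean and SD of each group in black and controls 2 and 3 as open points; vertical scales differ between panels. Fos, Ier3 and Dusp1 show all mutant points above all control points, and Jun shows the reverse by a narrow gap.

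Fosb, a close relative of Fos, was not above background in these canals. Its signals were 13.6, 54.6, 120.1 and 41.5 in controls 1 to 4 and 23.7, 4.71, 5.90 and 29.3 in mutants 1 to 4. It exceeded background on 0 of 8 arrays, so no size of change is given, and the filter on dim probe sets left it untested. The highest Fosb signals were on controls 3 and 2, the arrays of raised background.

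Jun, the main dimer partner of Fos, had slightly lower values in the mutants. On its brighter probe set the signals were 4615, 3609, 3607 and 4607 in controls 1 to 4 and 4295, 4127, 4203 and 3983 in mutants 1 to 4. The deposited signals overlapped, with mutants between the high and the low pair of controls, and only the normalized values separated. These were 12.09 ± 0.04 in controls and 11.94 ± 0.06 in mutants (SD, n = 4 each), with the lowest control at 12.04 and the highest mutant at 12.03. The fitted change was -0.17 (SE 0.07), limma's unadjusted p was 0.0250 and the adjusted p 0.349. With median-centred arrays Jun lay 0.42 above the median change of all probe sets, so its direction depended on the scaling. The dimmer Jun probe set had signals of 623, 287, 478 and 472 in controls and 396, 234, 498 and 401 in mutants, with a change of -0.10 (SE 0.28, adjusted p = 0.910).

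Junb and Jund, the other Jun proteins, did not pass, and their groups overlapped. The brighter Jund probe set gave 11229, 10138, 9382 and 11727 on control arrays 1 to 4, while mutant arrays 1 to 4 gave 10843, 13557, 11685 and 12277. The change was 0.04 (SE 0.05, adjusted p = 0.806 in limma), and its 95% interval ran from -0.08 to 0.15 on the log2 scale, the narrowest of the set. The dimmer Jund probe set was above background on 2 arrays of each group, was not tested, and had its highest signals, 387 and 154, on controls 3 and 2. Junb was faint, above background on 1 control and 3 mutant arrays. Its signals were 179, 168, 63.3 and 29.6 in controls and 131, 55.8, 46.6 and 33.6 in mutants, and its change of -0.08 had an SE of 0.54 (adjusted p = 0.966 in limma).

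Egr1, a zinc finger factor induced through the same kinases as Fos, did not share the pattern of Fos. Its signals were 1324, 1375, 1058 and 1473 in controls 1 to 4 and 741, 1712, 1561 and 1035 in mutants 1 to 4. The mutants held both the lowest and the highest arrays, and the spread was larger among mutants than among controls (log2 SD 0.51 and 0.20, n = 4 each). The change was -0.19 (SE 0.22, adjusted p = 0.737 in limma), with a 95% interval of -0.65 to 0.27. Whether Egr1 and Fos differ in response was not tested. With median-centred arrays Egr1 lay 0.29 above the median change.

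Ier2, a nuclear protein of the early growth response, had signals of 137, 134, 278 and 134 in controls 1 to 4 and 127, 67.5, 96.9 and 88.9 in mutants 1 to 4. It was above background on 3 control and 4 mutant arrays. Its signal on control 2 lay under the background limit of 316 there, and its 278 on control 3 was close to the limit of 270. As deposited, all mutant signals were below all control signals, but the normalized levels overlapped, with 7.06 ± 0.58 in controls and 7.15 ± 0.24 in mutants (SD, n = 4 each). The fitted change was 0.01 (SE 0.35, adjusted p = 0.995 in limma), and -0.18 without controls 2 and 3. Its direction therefore depended on how arrays were scaled and which were kept.

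Atf3, a stress-induced factor that often represses its targets, had signals of 219, 360, 147 and 190 in controls 1 to 4 and 178, 137, 155 and 95.5 in mutants 1 to 4. Its log2 level was 7.47 ± 0.76 in controls and 7.63 ± 0.21 in mutants (SD, n = 4 each), with control 3 far below the other controls. Atf3 was above background on 3 control and 4 mutant arrays, and control 3 was the array where it was not. The fitted change was -0.12 (SE 0.32, adjusted p = 0.902 in limma), of opposite sign to the difference of the unweighted means. Without control 3 it was -0.35, and without array weights 0.16.

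**Figure D2:**
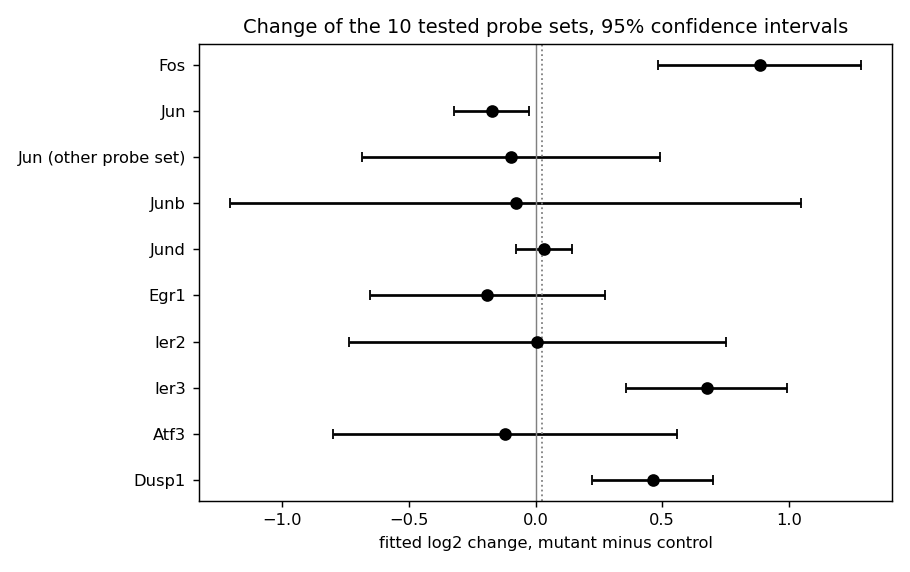
Fitted log2 change, mutant minus control, of the 10 tested member probe sets with 95% confidence intervals; the solid line is 0 and the dotted line the median change over all probe sets, 0.03. The intervals of Fos, Ier3 and Dusp1 lie above 0, that of the brighter Jun probe set lies just below it, and the widest belongs to Junb.

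Within groups, a joint variation of Fos and Ier3 rested in part on controls 2 and 3. The deviations of both from their group means had a Pearson r of 0.81 and a Spearman rho of 0.36 over the 8 arrays, and r was 0.52 over the 6 arrays without controls 2 and 3. Fos and Dusp1 gave r = 0.37, rho = 0.31 and r = 0.18 in the same way. Ier3 and Dusp1 gave r = 0.45, rho = 0.40 and, without controls 2 and 3, r = -0.37. Fos and Junb gave r = 0.70, rho = 0.90 and r = 0.94. Since Fos hardly varied among mutants (SD 0.04), this last r rested mainly on controls 1 and 4. Junb was above background on only 1 control and 3 mutant arrays. Jund and Egr1 gave r = 0.89, rho = 0.90 and r = 0.90. These are descriptions over few arrays that share scaling and background, and control 3 held the lowest level of Fos, Ier3 and Dusp1 alike. Outside the set, the 5 genes whose deviations were most like those of Fos, among 12901 probe sets above background on all arrays, were Dazap1, Slc38a10, Ppm1e, Arhgap21 and Mmrn2. Their r was 0.98 to 0.99 over the 8 arrays and 0.68 to 0.94 without controls 2 and 3, and 152 probe sets had an r above 0.9. Their changes between groups were 0.22, 0.12, -0.12, 0.22 and 0.88, and 0 passed in limma (adjusted p 0.253 to 0.873).

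Other immediate early genes gave no call. Of 43 on a list that holds chosen Egr, Nr4a, Klf, Ier and Gadd45 genes and similar rapid targets, 38 were tested on their brightest probe set. In limma 0 passed, and at an unadjusted p under 0.05, 5 were higher and 3 lower, beside 7.31% and 5.61% of the 12069 genes tested this way. Positive changes numbered 21 and negative ones 17, with a median of 0.04. The smallest p values belonged to the kinase Sgk1 (0.30, SE 0.10), the RNA-binding protein Zfp36l2 (-0.38, SE 0.13), the stress gene Gadd45b (0.49, SE 0.19) and the small GTPase Rhob (-0.29, SE 0.12). Sgk1 and Gadd45b had no overlap between groups, as had 4.44% of all probe sets upward. The adjusted p values of the 4 genes in limma ran from 0.281 to 0.338.

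No kinase or factor upstream of these genes passed. Of 29 listed genes from Ras to ERK, JNK, p38, the ternary complex factors and the CREB family, 20 were tested and 9 are not analysed here. In limma 0 passed (median -0.03). At an unadjusted p under 0.05, 0 were higher and 0 lower, beside 7.31% and 5.61% of all genes tested this way. The smallest p values were those of Atf2 (-0.19, SE 0.09), Sos1 (-0.19, SE 0.10), Elk3 (-0.24, SE 0.15) and Map2k4 (0.21, SE 0.13). Among AP-1 partners, 12 of 16 were tested, 3 had positive and 9 negative changes, and 0 passed. At an unadjusted p under 0.05, 1 was higher, Maf (0.36, SE 0.16), beside 7.31% of all genes tested this way. Next came Atf2, Nfe2l1 (-0.13, SE 0.09) and Jdp2 (0.22, SE 0.20).

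The feedback genes of the MAP kinase pathway beside Dusp1 also gave no call. Of 15 listed Dusp, Sprouty, Spred and Errfi1 genes 13 were tested, 10 with positive and 3 with negative changes (median 0.05), and 0 passed in limma. At an unadjusted p under 0.05, 1 was higher and 0 lower, beside 7.31% and 5.61% of all genes tested this way. The higher one was Dusp5, a nuclear phosphatase that acts on ERK, with 10.50 in controls and 11.03 in mutants on the log2 scale. Its change was 0.38 (SE 0.13, adjusted p = 0.298 in limma). Its groups did not overlap, as for 4.44% of all probe sets in the upward direction. Dusp8 (-0.59, SE 0.28), Spred2 (0.30, SE 0.19) and Dusp4 (0.28, SE 0.18) followed.

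Heat shock and stress genes, which respond to handling of tissue as immediate early genes do, had about as many negative as positive changes. Of 16 listed 14 were tested, 6 had positive and 8 negative changes (median -0.01), and 0 passed in limma. At an unadjusted p under 0.05, 1 was higher, the small heat shock protein Hspb1 (0.32, SE 0.12), and 3 were lower, the cochaperones Dnaja1 (-0.21, SE 0.08) and Dnajb1 (-0.29, SE 0.11) and the mitochondrial chaperonin Hspd1 (-0.14, SE 0.06), beside 7.31% and 5.61% of all genes tested this way. Deviations from the group means of the list's mean level had an r of 0.79 with those of Dusp1 and 0.86 with Ier2. They had 0.23 with Ier3 and -0.094 with Fos over the 8 arrays, which share scaling and background. The list's mean level was lowest on controls 2 and 3 (mean log2 deviations -0.33 and -0.15). Its summed normalized signal was instead lowest on mutants 2 and 3 (72595 and 76263). Ier2, not above background on control 2, gave r = 0.92 with endothelial, 0.80 with epicardial, -0.11 with cardiomyocyte and -0.087 with cushion mesenchyme markers. Dusp1 gave 0.51, 0.25, 0.55 and -0.098 in that order, so for Ier2 the heat shock list did not stand out. The part of tissue handling in the levels of Dusp1 and Ier2 was not tested.

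Summed signals of markers of several cell types were separate between the groups, as those of Fos, Ier3 and Dusp1 were. Of 10 cushion mesenchyme genes, 10 had negative changes (median -0.63), 1 passed as lower (Erbb3), and their summed normalized signal was 46874 to 49059 in controls and 34732 to 41425 in mutants. Of 12 cardiomyocyte genes, 12 had positive changes (median 0.13), and the sum was 110489 to 116981 in controls and 120966 to 124700 in mutants. Of 8 epicardial genes 7 were tested, all with positive changes (median 0.56), and the sum was 4980 to 6292 in controls and 7127 to 10374 in mutants. For 12 endothelial genes the median was 0.24, with 8 positive and 4 negative, and 1 passed as lower (Tek). At an unadjusted p under 0.05, 4 were higher and 2 lower, beside 7.31% and 5.61% of all genes tested this way. The sum was 15585 to 16413 in controls and 14188 to 14965 in mutants. Their mean log2 deviations leaned the other way and overlapped, at -0.39 to 0.11 in controls and 0.018 to 0.24 in mutants. Erythroid genes had a median of -0.20 over 7 tested, and 3 of 11 macrophage and blood genes were bright enough to test, with a median of -0.13. No tested marker was below background on all 8 arrays. Within groups, the deviations of Egr1 had an r of 0.87 with those of the cushion mesenchyme list over the 8 arrays. Its r was -0.11 with cardiomyocyte, -0.24 with epicardial, -0.26 with endothelial and -0.41 with heat shock genes. The part of these cell types in the values of Egr1, Fos, Ier3 and Dusp1 was not tested.

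**Figure D3:**
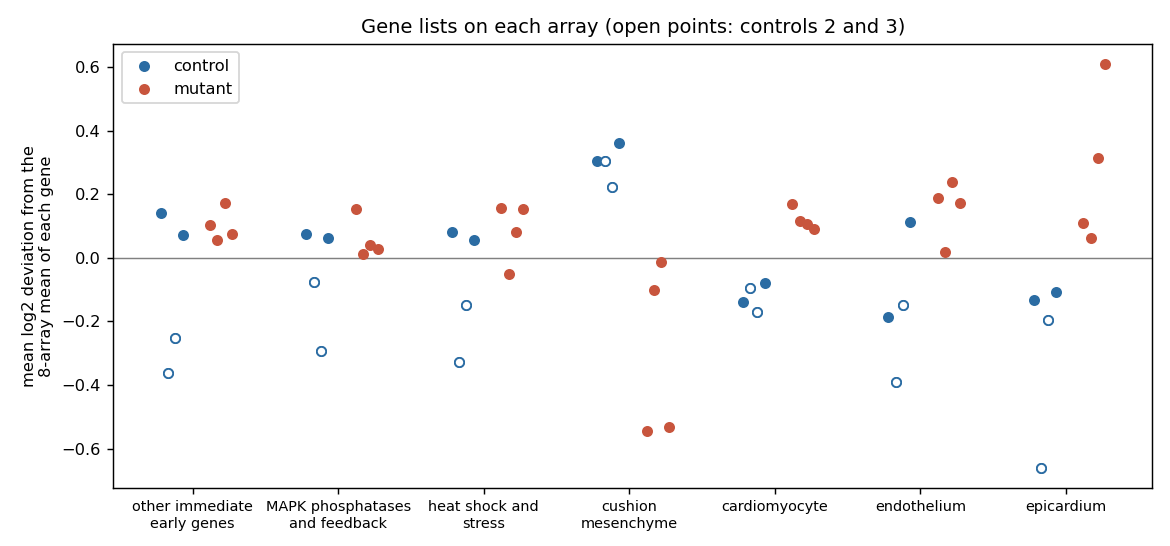
Mean log2 deviation of each list's tested genes from their 8-array means, on control (blue) and mutant (red) arrays, with controls 2 and 3 as open points. Cushion mesenchyme is lower and cardiomyocyte and epicardial genes are higher on all mutant arrays. Endothelial, other immediate early, MAPK feedback and heat shock genes overlap between groups.

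**Figure D4:**
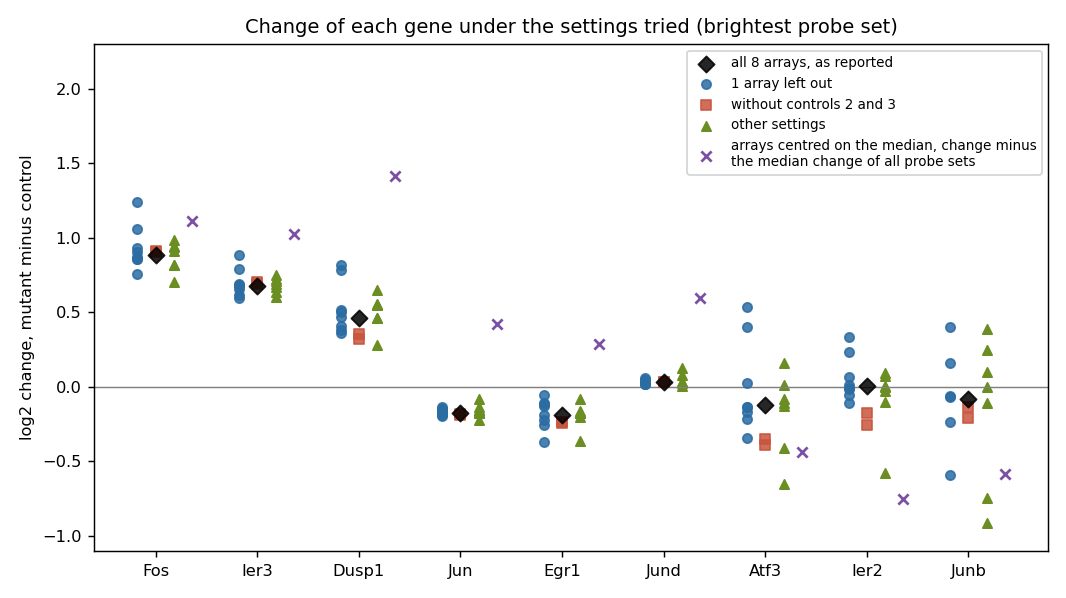
Fitted log2 change of each tested gene's brightest probe set with all 8 arrays (black diamonds), with 1 array left out (blue), without controls 2 and 3 (red), under the other settings (green), and with median-centred arrays after subtraction of the median change of all probe sets (crosses). Fos, Ier3 and Dusp1 stay above 0 under all settings drawn, as does Jund, which lies near 0 with all arrays. Atf3, Ier2 and Junb fall on both sides of 0, and Jun and Egr1 lie below it except for their crosses (0.42 and 0.29).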

How the data were processed

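Per the submitters' processing notes, the authors deposited MAS5 intensity values, 1 array per pool. No version is given in the sources used here. Every array has the same mean signal, 715.0. Gene names came from the platform annotation: 34958 probe sets have 1 symbol, 932 several and 9211 none. Signals were taken as log2(signal + 16) and quantile normalized, and 64 array controls and the dimmest 40% of probe sets were left out. The groups were compared by limma 3.58.1 under R 4.3.3, with array weights and trended, robust eBayes. Tests were two-sided, with Benjamini-Hochberg adjustment over 27022 probe sets and a threshold of 0.05. The fit was tested on simulated data. The main fit did not pair arrays by replicate number. Same-numbered arrays had correlations of deviations between -0.13 and 0.17, which do not show whether they shared a litter or batch. The members and lists were chosen with earlier results of these data known. Named genes are all members, up to 4 of smallest p per pathway list, and the 5 most like Fos. Marker genes are named only where a count needed them. Alternatives covered scaling, pseudocount, filter, weights, arrays kept, replicate block and RNA quality.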

Additional observations from a re-analysis of the deposited data

Results flagged for a closer look

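In 2 of the 24 groups of 4 values checked, 1 array stood apart from the other 3, where chance alone gives about 1 in 20. Dusp1 in mutant 1 had a log2 level of 12.92 against 12.60 to 12.61 in mutants 2 to 4, a gap of 0.975 of the range of the group. Atf3 in mutant 4 had 7.31 against 7.71 to 7.75 in the other mutants, a gap of 0.901 of the range. Without mutant 1 the change of Dusp1 was 0.41, and without mutant 4 that of Atf3 was 0.03.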

How the results depend on the processing

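The changes of Fos, Ier3 and Dusp1 were positive under all 18 alternatives run for each, from 0.70, 0.60 and 0.28 upward. The count of member probe sets called higher was 0 with all arrays, 1 on the authors' scaling, 1 with the replicate block (Dusp1, adjusted p = 0.0177), 7 with median-centred arrays and 0 to 3 with 1 array left out. In the same order, the shares of all tested probe sets called higher were 0.0259%, 0.152%, 0.0962%, 64.1% and 0.0111% to 5.24%. The number of member probe sets called lower was 0 throughout. The median change of members was 1.49 with median-centred arrays, which is 0.36 above the median of all probe sets there (1.13), 0.20 without array weights and -0.15 to 0.40 with 1 array left out. All probe sets called higher and lower numbered 7 and 5, 41 and 22 on the authors' scaling, 17318 and 1833 with median-centred arrays, 22 and 12 with a pseudocount of 64, 14 and 12 without the filter, and 6 and 10 without array weights. They numbered 1 and 1 without controls 2 and 3, with or without array weights, 26 and 34 with the replicate block, 2 and 2 with the RNA ratio covariate, and 3 to 1417 and 2 to 371 with 1 array left out. Of the 8 arrays, 1 correlated best with the array of the other group that bears its number.

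With median-centred arrays the fitted changes of Atf3 (0.70), Egr1 (1.42), Jun (1.56) and Junb (0.55) were positive. Relative to the median of 1.13, Egr1 (0.29) and Jun (0.42) turned direction, while Atf3 (-0.43), Junb (-0.58) and Ier2 (-0.75) were negative. The change of Ier2 less the median of all probe sets was already -0.018 in the main fit. Direction turned without array weights for Atf3 (0.16) and Junb (0.39), and without the filter for Atf3 (0.016) and Junb (0.10). For Ier2 it turned on the authors' scaling (-0.58), with the RNA covariate (-0.10), with the block (-0.027) and without controls 2 and 3 (-0.18 with and -0.25 without array weights), and for Junb with the block (0.24). With 1 array left out the changes ran from -0.35 to 0.54 for Atf3, -0.11 to 0.33 for Ier2 and -0.59 to 0.40 for Junb, and Junb was too dim to test in 2 of these. The cause was not tested. Raised background on controls 2 and 3 limits what the dim members can show.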
